A study of Mus musculus with 12 samples.

Results

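The genes described here are 7 dual-specificity phosphatases that act on MAP kinases, Dusp1, Dusp2, Dusp3, Dusp4, Dusp5, Dusp6 and Dusp16. They were chosen by name from 18194 genes read on the arrays, and all 7 had a mean at or above the floor of 3.83 log2, the median of all values on 11 arrays, so none was lost to the filter on low values. The macrophages had been drawn into the mouse peritoneum with thioglycollate and came from 3 genotypes, wild type, IRAK2 knockout, and a knockout of both IRAK1 and IRAK2 (the double knockout). Each genotype was measured unstimulated (0 h) and after 2, 4 and 8 h with MALP-2 at 100 ng/ml, a mycoplasmal lipopeptide sensed by TLR2 together with TLR6, with 1 array for each genotype and time and 12 arrays in all. The sources used here do not state strain, age, sex or how many mice stand behind an array. Values are log2 expression, so a difference of 1 is a factor of 2.

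MAP kinases are switched on when a tyrosine and a threonine in their activation loop are phosphorylated, and dual-specificity phosphatases switch them off by removing both phosphates. In macrophages, Toll-like receptors signal through MyD88 and the IRAK kinases to the MAP kinases ERK, JNK and p38, which drive cytokine transcription and stabilize cytokine messengers. Several of the phosphatase genes are themselves induced by this signalling and so form a negative feedback. Dusp1, Dusp2, Dusp4 and Dusp5 encode nuclear, inducible enzymes, Dusp6 a cytoplasmic enzyme selective for ERK, and Dusp16 an enzyme that prefers JNK and p38. Dusp3 encodes VHR, a small enzyme without the MAP kinase-binding domain of the others.

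In wild-type and IRAK2-knockout cells MALP-2 raised Dusp1 and Dusp4 at all 3 times, and Dusp16 likewise on its main probeset only. It raised Dusp2 at 2 and 4 h and Dusp5 at 2 h alone, and lowered Dusp3 on its main probeset. Dusp6 was lower at 2 h and higher at 4 and 8 h. In the double knockout Dusp2 and Dusp5 lacked the 2 h peak seen in the other genotypes, and Dusp1 stood above wild type at every time. Dusp4 read above 6 log2 in stimulated cells of all 3 genotypes and 4.01 or less in unstimulated cells. Dusp16 read 8.54 at 8 h on its main probeset in wild type, 7.16 without IRAK2 and 7.10 without both kinases. At 2 h the genotypes lay close together on that probeset but not on its other one, which read 6.29 in wild type, 5.19 without IRAK2 and 5.41 without both.

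**Figure D1:**
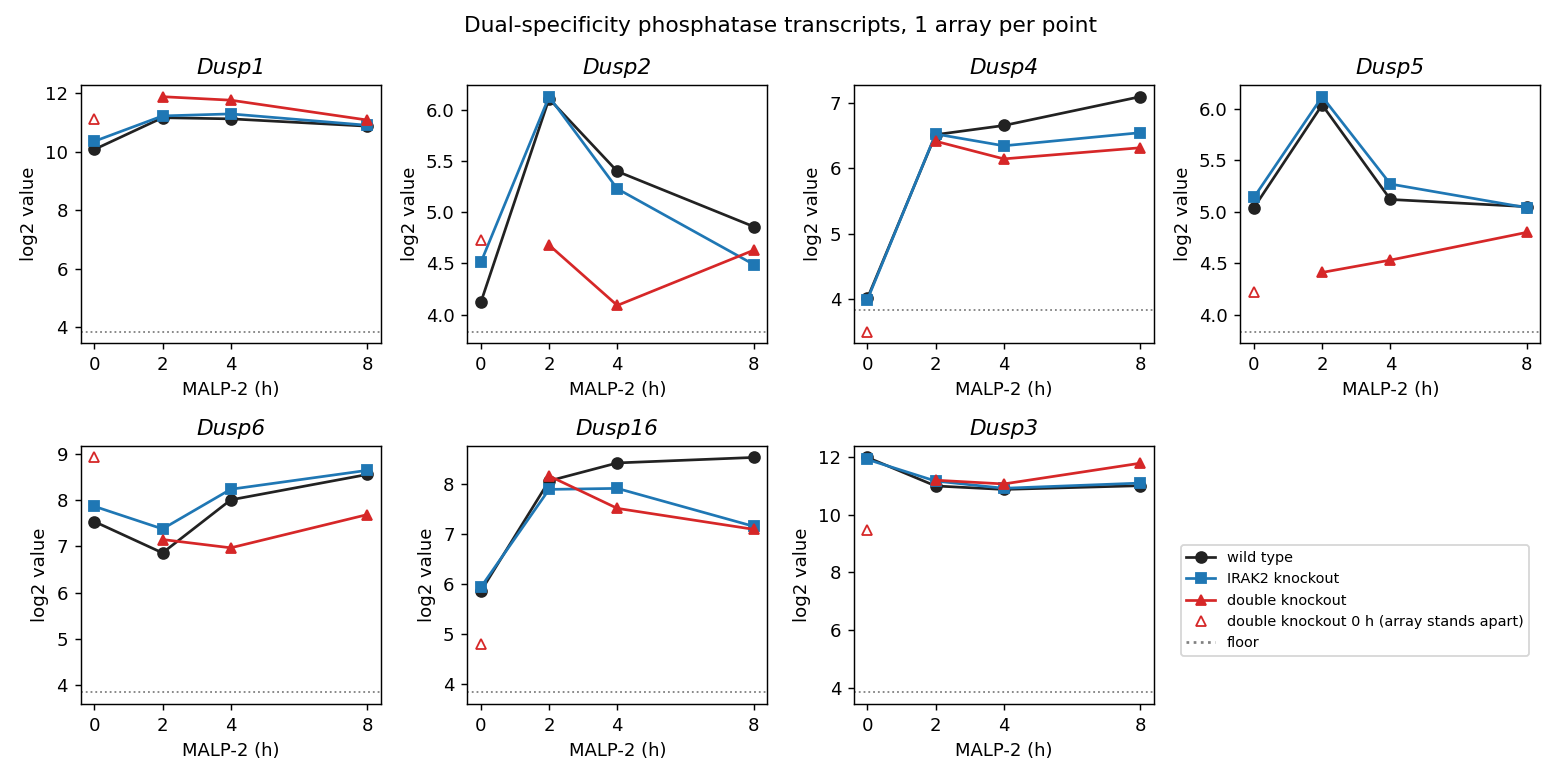
Log2 values of the 7 genes (main probeset, vertical axis, scaled separately in each panel) against hours of MALP-2 (horizontal axis) in wild type, IRAK2 knockout and double knockout, with 1 array per point and no error bars. The open triangle is the double-knockout 0 h array, which stands apart, and the dotted line is the floor of 3.83. Dusp2 and Dusp5 reach 6.11 and 6.04 at 2 h in wild type against 4.68 and 4.41 in the double knockout.

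The double-knockout 0 h array correlated with the other arrays at 0.764 to 0.804, whereas the other 11 correlated with each other at 0.954 or more. It enters none of the main tests below, only alternative fits named as using all 12 arrays. Responses of the double knockout were therefore read against the average of the other genotypes' 0 h arrays, and a value against its own 0 h array is named as such. Its stimulated arrays had weaker 5' signal than the arrays of the other genotypes, with actin 5' minus 3' values of -4.68 to -3.87 log2 against -3.72 to -3.18. The Irak2 probeset read 5.77 to 6.69 in wild type, 4.65 to 5.63 in the IRAK2 knockout and 4.61 to 5.19 in the stimulated double knockout. Of 4 Irak1 probesets, 1 read 5.52 to 5.94 in wild type and 4.39 to 4.72 in the stimulated double knockout. The brightest read 8.46 to 8.59 in wild type and 8.11 to 8.31 in the stimulated double knockout. The double-knockout 0 h array read 3.53 for Irak2, and 3.94 and 10.84 on these Irak1 probesets. The sources used here do not state whether these probesets fall inside what was deleted. Of 7 macrophage markers, 6 read well above the floor on the 11 arrays and Itgam read 3.82 to 5.28, with its lowest value in the double knockout at 4 h. The summed level of the 7 was 14.48 to 14.60 log2 in wild type, 14.51 to 14.66 in the IRAK2 knockout and 14.47 to 14.49 in the stimulated double knockout. The sum rests mainly on the brightest markers. At 8 h wild type and double knockout read 10.70 and 8.10 for Cd14, 11.50 and 10.42 for Adgre1 and 6.87 and 9.13 for Mrc1. Csf1r (13.06 and 13.31), Lyz2 (13.04 and 12.80) and Cd68 (11.59 and 11.60) lay closer together. All 6 T and NK cell markers read within 1 log2 of the floor or below it. Of 6 neutrophil markers read, S100a9, Ngp and Ltf were likewise near the floor, and the summed level of the 6 was 10.65 to 11.20 log2 in wild type, 10.41 to 10.95 in the IRAK2 knockout and 9.36 to 9.61 in the stimulated double knockout. S100a8 makes up most of it, at 10.48 to 11.03 in wild type and 9.09 to 9.41 in the stimulated double knockout. Of 6 eosinophil and mast cell markers, Epx, Prg2, Mcpt4 and Fcer1a were near the floor, and their summed level was 6.78 to 7.82, 6.81 to 7.70 and 7.91 to 8.23. Of 5 B cell markers read, Cd79a, Cd79b and Pax5 were near the floor (sums of 7.18 to 8.29, 6.54 to 6.96 and 7.27 to 7.88), and so were Msln, Upk3b and Krt19 of 6 mesothelial and stromal markers (10.75 to 11.06, 10.86 to 11.08 and 10.94 to 11.14). The neutrophil and the eosinophil and mast cell sums, Cd14, Adgre1, Mrc1 and the 5' signal thus move with the double knockout. The B cell sum was lower in the IRAK2 knockout than in wild type without overlap, with Ighm at 5.36 to 5.95 against 6.37 to 7.92. The part of all of these in the differences below was not tested. In such bulk samples, fewer cells of a type and less RNA per cell cannot be told apart.

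The first comparison asked which phosphatase transcripts MALP-2 changed. Changes common to wild type and IRAK2 knockout were tested with limma on their 8 arrays, with Benjamini-Hochberg adjustment over 10858 genes and a threshold of 0.05. With 1 array per genotype and time, a p-value weighs a change against how far the genotypes differ, not against the spread between mice. At 2 h all 7 members were called, 5 higher and 2 lower, beside 45.2% of all genes. At 4 h 6 were called (40.3% of all genes), of which 5 were higher, and at 8 h 5 were (32.7%), of which 4 were higher. The 3 times share the same 0 h arrays. In a fit of 11 arrays that adds the stimulated double knockout, the calls of Dusp5 at 2 h (0.72, adjusted p 0.0683) and of Dusp6 at 2 and 4 h (-0.35 and 0.26, adjusted p 0.311 and 0.488) were lost. The median difference of the members was 0.993, 0.999 and 0.675 log2 at 2, 4 and 8 h, beside -0.12, -0.04 and -0.03 over all genes tested. In wild type alone, without a test, 5 members were at least 2-fold apart from 0 h at 2 h, 5 at 4 h and 3 at 8 h, beside 13.1%, 12.3% and 10.7% of genes measured.

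**Figure D2:**
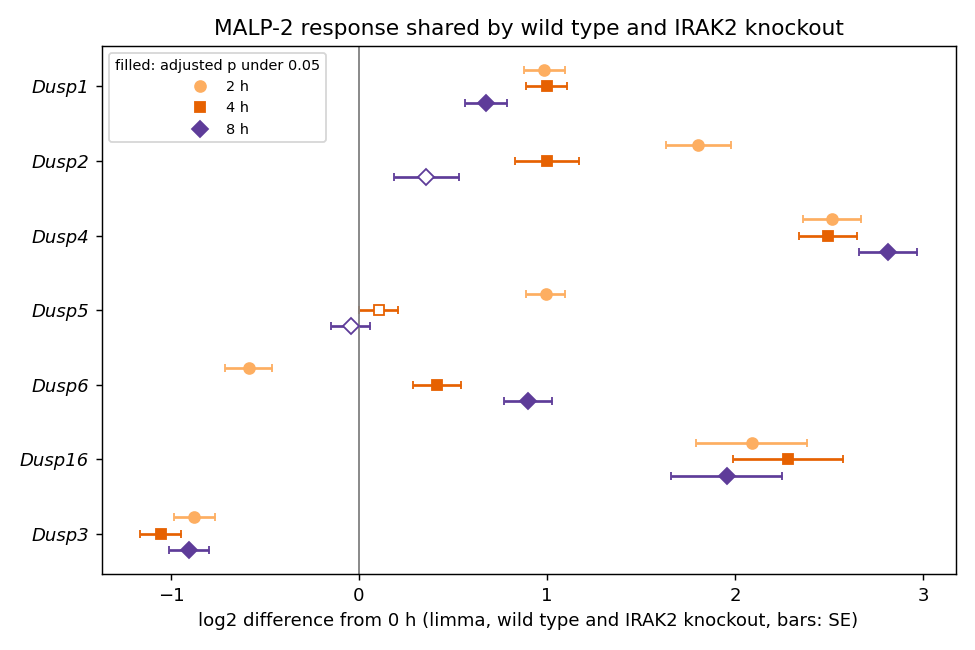
Difference from 0 h (log2, horizontal axis) of each gene at 2, 4 and 8 h of MALP-2, from limma on the 8 arrays of wild type and IRAK2 knockout, with bars for the standard error and filled symbols for an adjusted p under 0.05. Dusp4 and Dusp16 have all 3 points at 1.96 or above, Dusp2 and Dusp5 come down from 1.81 and 0.99 at 2 h, Dusp6 crosses 0, and Dusp3 stays below it.

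Dusp1 encodes MKP-1, the phosphatase that limits p38 and JNK activity in Toll-like receptor-stimulated macrophages. Its gene lies at chr17:26505591-26508472 (GRCm38.p6) and was read by probeset 1448830_at. In wild type it read 10.08 at 0 h and 11.17, 11.13 and 10.88 at 2, 4 and 8 h. The IRAK2 knockout read 10.36, then 11.23, 11.30 and 10.91, and the double knockout 11.14 on its 0 h array, then 11.89, 11.77 and 11.09. All stimulated arrays exceeded the 0 h arrays of wild type and IRAK2 knockout, and the double knockout had the highest value at each time. The shared rise was 0.99 log2 at 2 h (SE 0.11, 1.98-fold, adjusted p 0.000261), 0.999 at 4 h (adjusted p 0.000276) and 0.67 at 8 h (adjusted p 0.00259). From 2 to 8 h the transcript fell by 0.48 log2 over the 3 genotypes (SE 0.13, adjusted p 0.0309). In the double knockout it was higher than in wild type by 0.72, 0.64 and 0.21 log2 at 2, 4 and 8 h, and higher by 0.52 over the 3 times (SE 0.13, adjusted p 0.0124). Without the 2 h arrays this difference was 0.42 (adjusted p 0.0910), and without the 4 h arrays 0.46 (adjusted p 0.132). The IRAK2 knockout differed from wild type by 0.09 (SE 0.13, adjusted p 0.818).

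Dusp2 encodes PAC-1, a phosphatase of activated leukocytes that acts on ERK and p38. The gene (chr2:127336159-127338377) was read by probeset 1450698_at. It read 4.12 at 0 h in wild type and 6.11, 5.40 and 4.86 after MALP-2. Without IRAK2 the values were 4.51, then 6.13, 5.23 and 4.49, so that at 8 h the level was that of 0 h. The double knockout read 4.73 on its 0 h array and 4.68, 4.09 and 4.63 after MALP-2, and none of its 4 values reached those of the other genotypes at 2 or 4 h. All 4 lie within 1 log2 of the floor, as do the 0 h values of the other genotypes. The shared rise was 1.81 log2 at 2 h (SE 0.17, 3.49-fold, adjusted p 0.000122) and 1.0 at 4 h (adjusted p 0.00249). At 8 h the difference was 0.36 (adjusted p 0.152). From 2 to 8 h Dusp2 fell by 0.98 log2 over the 3 genotypes (adjusted p 0.0288), with differences of -1.26 in wild type, -1.64 in the IRAK2 knockout and -0.05 in the double knockout. In the double knockout it was lower than in wild type by -1.44, -1.31 and -0.23 log2 at 2, 4 and 8 h, which at 2 h is a 2.71-fold difference. Over the 3 times the difference was -0.99 (SE 0.26, adjusted p 0.0162) against wild type and -0.82 (adjusted p 0.0376) against the IRAK2 knockout. It was -0.77 without the 2 h arrays (adjusted p 0.0944) and -0.83 without the 4 h arrays (adjusted p 0.131). The IRAK2 knockout differed from wild type by -0.17 (SE 0.26, adjusted p 0.816).

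Dusp5 encodes a nuclear phosphatase that is selective for ERK and holds it in the nucleus. The gene (chr19:53529145-53541809) was read by probeset 1437199_at. Wild type read 5.04 at 0 h, then 6.04, 5.12 and 5.05. Without IRAK2 the values were 5.14, then 6.12, 5.27 and 5.04. The double knockout read 4.22 on its 0 h array and 4.41, 4.53 and 4.80 after MALP-2, the lowest value of the 3 genotypes at every time. These double-knockout values all lie within 1 log2 of the floor. Only the 2 h arrays of wild type and IRAK2 knockout stood out, and their 4 and 8 h values differed from their own 0 h values by 0.13 log2 or less. The shared rise at 2 h was 0.99 log2 (SE 0.10, 1.99-fold, adjusted p 0.000192), and the differences at 4 and 8 h were 0.10 (adjusted p 0.462) and -0.04 (adjusted p 0.773). In the double knockout Dusp5 was lower than in wild type by -1.63, -0.59 and -0.25 log2 at 2, 4 and 8 h, a 3.10-fold difference at 2 h. Over the 3 times the difference was -0.82 (SE 0.26, adjusted p 0.0308) from wild type and -0.90 (adjusted p 0.0232) from the IRAK2 knockout. It was -0.42 without the 2 h arrays (adjusted p 0.108) and -0.94 without the 4 h arrays (adjusted p 0.0964). With the average 0 h level of the other genotypes as baseline, the double knockout stood at -0.68, -0.56 and -0.29, below that baseline at all 3 times. The decline of Dusp5 after 2 h was not called over all 3 genotypes (-0.56 from 2 to 8 h, adjusted p 0.151), and without the double-knockout arrays it was -1.04 (adjusted p 0.000479).

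Over the stimulated times, Dusp1 was called higher and Dusp2 and Dusp5 lower in the double knockout than in both other genotypes. No other member was called against both. Of all genes, 41.2% were called against wild type and 38.9% against the IRAK2 knockout. Against the IRAK2 knockout, the calls of Dusp1, Dusp2 and Dusp5 were lost without the 2 h arrays (adjusted p 0.179, 0.251 and 0.0762). They were also lost without the 4 h arrays (adjusted p 0.183, 0.235 and 0.101). With only the double and IRAK2 knockouts in the fit, those of Dusp1 and Dusp2 were lost (adjusted p 0.059 and 0.062). At 8 h Dusp2 read 4.63 in the double knockout, above the 4.49 of the IRAK2 knockout, both near the floor. The promoters of Dusp1, Dusp2 and Dusp5 are shown here. Each run holds the 250 bases before the RefSeq gene start (GRCm38.p6), 5′ to 3′ on the gene's strand, at chr17:26508473-26508722 (minus strand) for Dusp1, chr2:127335909-127336158 (plus strand) for Dusp2 and chr19:53528895-53529144 (plus strand) for Dusp5. Capitals mark matches to a cyclic AMP response element, TGACGTCA, to its core TGACG, or to the CArG box bound by serum response factor.
Dusp1: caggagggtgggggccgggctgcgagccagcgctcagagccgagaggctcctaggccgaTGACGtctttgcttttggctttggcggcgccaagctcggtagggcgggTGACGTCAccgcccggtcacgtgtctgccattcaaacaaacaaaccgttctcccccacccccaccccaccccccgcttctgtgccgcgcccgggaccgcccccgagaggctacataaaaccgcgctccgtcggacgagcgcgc
Dusp2: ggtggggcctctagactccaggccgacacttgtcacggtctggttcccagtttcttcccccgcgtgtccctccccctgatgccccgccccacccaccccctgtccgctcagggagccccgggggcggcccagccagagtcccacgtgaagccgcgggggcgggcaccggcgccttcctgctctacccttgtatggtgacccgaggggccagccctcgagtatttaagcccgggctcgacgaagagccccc
Dusp5: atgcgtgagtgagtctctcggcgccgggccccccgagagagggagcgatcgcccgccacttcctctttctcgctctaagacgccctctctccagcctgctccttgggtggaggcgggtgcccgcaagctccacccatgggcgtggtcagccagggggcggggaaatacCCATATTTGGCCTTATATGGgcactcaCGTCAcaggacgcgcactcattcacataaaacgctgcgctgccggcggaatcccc

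In the Dusp1 window the full cyclic AMP element began 143 bases before the gene start and a further TGACG 191 bases before it. In the Dusp5 window there were 2 CArG boxes in direct succession, beginning 82 and 72 bases before the start, and a TGACG on the opposite strand beginning 55 bases before it. The Dusp2 window held no match to any motif searched. Both strands were searched, also for the AP-1 site TGANTCA and the kappa B site, neither of which was found in the windows of the 6 members in the promoter table. Each full cyclic AMP element contains the core on both strands. Of 32851 windows of the same length, 1.55% held the full cyclic AMP element, 17.8% its core, 6.75% the AP-1 site, 7.25% the kappa B site and 1.47% a CArG box. Among the other members, Dusp16 had 1 TGACG, beginning 70 bases before the end of its window, and Dusp6 and Dusp3 had no match. The windows of Dusp16 (chr6:134792629-134792878) and Dusp3 (chr11:101984792-101985041), both on the minus strand, lay inside the gene spans given below. They are thus not the bases before the start of those spans. Dusp4 was not in the table. These are matches of letters and no binding was measured.

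Dusp4 encodes MKP-2, a nuclear enzyme close to MKP-1 in sequence that acts on ERK and JNK. The gene (chr8:34807610-34819894) was read by probeset 1428834_at. It read 4.01 in wild type at 0 h, near the floor, then 6.51, 6.65 and 7.09. The IRAK2 knockout read 3.99, then 6.52, 6.34 and 6.54, and the double knockout 3.50 on its 0 h array, then 6.41, 6.14 and 6.31. The 9 stimulated values all exceeded the 3 unstimulated ones by at least 2 log2, and at 2 h the 3 genotypes lay close together. The shared rise was 2.52 log2 at 2 h (SE 0.15, 5.72-fold, adjusted p 1.63e-05), 2.49 at 4 h (adjusted p 2.31e-05) and 2.81 at 8 h (7.03-fold, adjusted p 1.25e-05). At 8 h wild type stood 0.55 log2 above the IRAK2 knockout and 0.78 above the double knockout. Over the 3 times the double knockout was lower than wild type by -0.46 (SE 0.14, adjusted p 0.0293), and this was -0.44 without the 4 h arrays (adjusted p 0.182) and -0.31 without the 8 h arrays (adjusted p 0.148). The difference of the IRAK2 knockout was -0.29 (adjusted p 0.428).

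Dusp16 encodes MKP-7, which shuttles between nucleus and cytoplasm and acts on JNK and p38. The gene lies at chr6:134715468-134807063 (GRCm38.p6) and is read by 2 probesets, the main one being 1418401_a_at. On the main one wild type read 5.86 at 0 h, then 8.07, 8.43 and 8.54. The IRAK2 knockout read 5.94, then 7.90, 7.92 and 7.16, and the double knockout 4.81 on its 0 h array, then 8.17, 7.52 and 7.10. At 2 h the 3 genotypes lay close together, and at 8 h both knockouts were well below wild type and close to each other. The shared rise was 2.09 log2 at 2 h (SE 0.29, 4.25-fold, adjusted p 0.000834), 2.28 at 4 h (adjusted p 0.000586) and 1.96 at 8 h (adjusted p 0.00178). The IRAK2 knockout minus wild type was 0.08, -0.16, -0.51 and -1.38 log2 at 0, 2, 4 and 8 h, the last a 2.60-fold difference. At 8 h Dusp16 was the 1 member at least 2-fold apart between these genotypes, beside 1.89% of genes measured. The double knockout minus wild type was 0.11, -0.91 and -1.44 at 2, 4 and 8 h, and over the 3 times -0.75 (SE 0.26, adjusted p 0.0457). That call was lost without the 4 h arrays (-0.67, adjusted p 0.209), without the 8 h arrays (-0.40, adjusted p 0.218) and with all genes tested regardless of level (adjusted p 0.0524).

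On the other Dusp16 probeset, wild type read 4.58, then 6.29, 5.79 and 5.65. The IRAK2 knockout read 3.88 at 0 h, near the floor, then 5.19, 4.58 and 3.88, and the double knockout 5.41, 4.77 and 4.54 after MALP-2. All genotypes were highest at 2 h among the stimulated times, and the IRAK2 knockout was back at its 0 h level by 8 h. Unlike on the main probeset, the IRAK2 knockout already lay below wild type at 0 h and wild type was lower at 4 and 8 h than at 2 h. With this probeset the IRAK2 knockout minus wild type was -1.36 over the stimulated times (adjusted p 0.00642), against -0.68 (SE 0.26, adjusted p 0.303) on the main one. The shared difference from 0 h at 8 h was 0.54 here (adjusted p 0.0868). The double-knockout 0 h array read 6.90 here, above every other array, and 4.81, below every other array, on the main probeset.

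**Figure D3:**
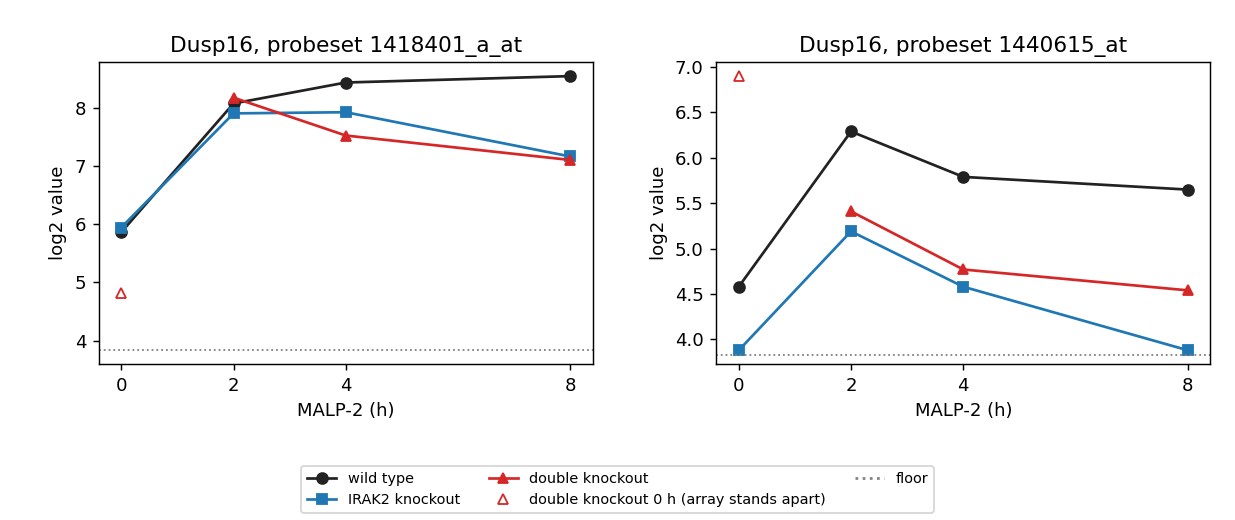
Log2 values (vertical axis, scaled separately) of both Dusp16 probesets against hours of MALP-2 (horizontal axis) in the 3 genotypes, 1 array per point, with the double-knockout 0 h array as an open triangle and the floor as a dotted line. At 8 h both knockouts lie below wild type on either probeset, at 7.16 and 7.10 against 8.54 on the left and at 3.88 and 4.54 against 5.65 on the right.

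Dusp6 encodes MKP-3, the cytoplasmic phosphatase that takes ERK as its main substrate and is a common readout of ERK activity. The gene (chr10:99263231-99267489) was read by probeset 1415834_at. Wild type read 7.54 at 0 h, then 6.86, 8.01 and 8.56. Without IRAK2 the values were 7.87, then 7.38, 8.24 and 8.65. In both the 2 h array was the lowest and the 8 h array the highest. The double knockout read 8.93 on its 0 h array, then 7.15, 6.97 and 7.69, and its 4 and 8 h values lay below those of the other genotypes. The shared difference from 0 h was -0.59 log2 at 2 h (SE 0.13, adjusted p 0.00640), 0.41 at 4 h (adjusted p 0.0315) and 0.90 at 8 h (1.86-fold, adjusted p 0.00128). From 2 to 8 h Dusp6 rose by 1.17 log2 over the 3 genotypes (SE 0.23, 2.25-fold, adjusted p 0.00867), by 1.70 in wild type, 1.27 in the IRAK2 knockout and 0.53 in the double knockout. Double knockout minus wild type was 0.29, -1.04 and -0.87 at 2, 4 and 8 h and -0.54 over the 3 times (SE 0.23, adjusted p 0.0937). Without the 2 h arrays it was -0.95 (adjusted p 0.00570). Against the IRAK2 knockout it was -0.82 (adjusted p 0.0225), or -0.59 (adjusted p 0.178) without the 4 h arrays and -0.75 (adjusted p 0.0922) without the 8 h arrays.

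Dusp3 was the 1 member that lay below its 0 h level at all 3 times in both wild-type and IRAK2-knockout cells. The gene lies at chr11:101971141-101987013, with 1434472_at as its main probeset. Its main probeset read 11.99 in wild type at 0 h, then 10.996, 10.88 and 11.01. The IRAK2 knockout read 11.92, then 11.17, 10.92 and 11.10, and the double knockout 9.48 on its 0 h array, then 11.20, 11.07 and 11.79. The stimulated values of wild type and IRAK2 knockout did not overlap their 0 h values. The shared difference was -0.88 log2 at 2 h (SE 0.11, adjusted p 0.000421), -1.05 at 4 h (adjusted p 0.000196) and -0.90 at 8 h (adjusted p 0.000582). At 8 h the double knockout stood 0.78 above wild type, and over the 3 times it differed by 0.39 (SE 0.15, adjusted p 0.0644). The other probesets of Dusp3 did not show a decline of this size. On one, wild type read 5.75 at 0 h, then 5.56, 5.20 and 5.59, and the IRAK2 knockout 5.81, then 5.86, 5.70 and 5.50. The last read 3.46 to 4.17 over the 11 arrays other than double knockout 0 h, near the floor throughout.

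The next comparison asked how the genotypes differed under MALP-2. It was tested with limma on the 9 stimulated arrays with time as an additive factor, so a small p-value asks that a difference be alike at 2, 4 and 8 h. In IRAK2 knockout minus wild type 0 of 7 members were called, beside 0.764% of all genes, and 1 member had an unadjusted p under 0.05. So did 1482 of all 10858 genes. In double knockout minus wild type 5 were called, Dusp1 higher and Dusp2, Dusp4, Dusp5 and Dusp16 lower, beside 41.2% of all genes. In double minus IRAK2 knockout 4 were called, Dusp1 higher and Dusp2, Dusp5 and Dusp6 lower, beside 38.9%. These comparisons share the double-knockout arrays. With only the 2 genotypes compared in the fit, the calls against wild type of Dusp4 (adjusted p 0.0757) and Dusp16 (adjusted p 0.0735) were lost. For Dusp2 and Dusp5, the differences of the IRAK2 knockout from wild type were -0.17 and 0.07 with standard errors of 0.26. For Dusp4 and Dusp16 they were -0.29 and -0.68, in the direction of the double knockout, and not called. At 2 h, without a test, 2 members were at least 2-fold apart between double knockout and wild type, Dusp2 and Dusp5, beside 9.3% of genes measured. At 8 h it was 1, Dusp16, beside 10.7%.

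**Figure D4:**
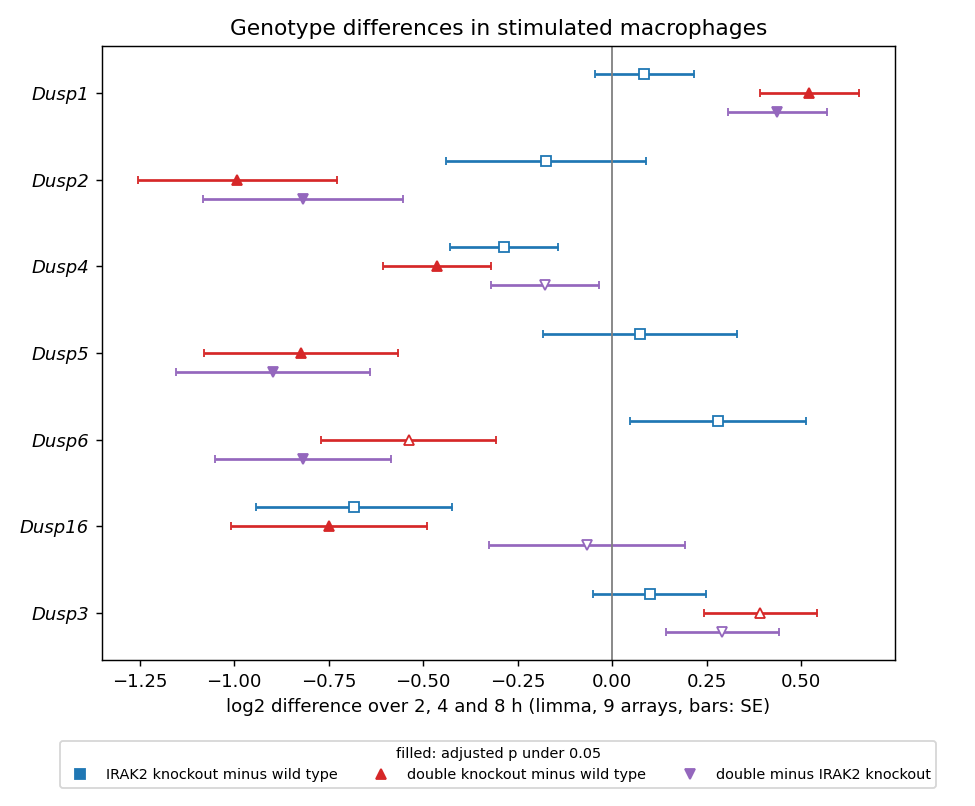
Genotype differences (log2, horizontal axis) of each gene over 2, 4 and 8 h of MALP-2, from limma on 9 arrays, with bars for the standard error and filled symbols for an adjusted p under 0.05. The differences of the double knockout from wild type run from -0.99 for Dusp2 to 0.52 for Dusp1, and no difference of the IRAK2 knockout from wild type is filled.

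Changes with time that the 3 genotypes share were read from the same fit. From 2 to 8 h 3 of 7 members were called, Dusp6 higher and Dusp1 and Dusp2 lower, beside 23% of all genes. From 2 to 4 h 0 were called (8.21% of all genes) and from 4 to 8 h 0 (0.728%), with an unadjusted p under 0.05 for 2 members each. An unadjusted p that low was found for 2665 and 1791 of all 10858 genes. All 3 calls from 2 to 8 h were lost without the wild-type arrays (Dusp1 -0.56, Dusp2 -0.84 and Dusp6 0.90, adjusted p 0.111, 0.189 and 0.0793). They were also lost without the IRAK2-knockout arrays (adjusted p 0.148, 0.231 and 0.0908), and that of Dusp1 without the double knockout (-0.31, adjusted p 0.0729). Without the double-knockout arrays the change from 2 to 4 h was called for 3 members, Dusp2 (-0.81, adjusted p 0.00525), Dusp5 (-0.89, adjusted p 0.00213) and Dusp6 (1.0, adjusted p 0.00256). That fit called 2037 of all 10858 genes, against 891 in the main fit. A limma fit of genotype-specific slopes on log2 time tested whether a genotype difference itself changed from 2 to 8 h. It called 0 of 7 members for IRAK2 knockout minus wild type (0.00921% of all genes), double knockout minus wild type (0.138%) and double minus IRAK2 knockout (0.00921%), with an unadjusted p under 0.05 for 1, 5 and 2 members. Of all 10858 genes, 536, 1629 and 1417 had an unadjusted p under 0.05 in these slope contrasts. For Dusp16 the slopes relative to wild type were -0.61 log2 per doubling of time without IRAK2 (SE 0.17, adjusted p 0.957) and -0.77 without both kinases (adjusted p 0.133). For Dusp5 and Dusp2 the double-knockout slopes were 0.69 (adjusted p 0.133) and 0.60 (adjusted p 0.206). The fit has 2 residual degrees of freedom.

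The wider MAP kinase pathway was read from 9 lists with 103 genes, of which 96 were on the arrays under 1 symbol and 74 had a mean at or above the floor. Of these 74 genes the shared response called 47 at 2 h, 29 of them higher, then 43 at 4 h, 25 of them higher, and 34 at 8 h, 18 of them higher. These are 63.5%, 58.1% and 45.9%, beside 45.2%, 40.3% and 32.7% of all genes. Double knockout minus wild type called 36, 18 in each direction, or 48.6% beside 41.2% of all genes. IRAK2 knockout minus wild type called 0, beside 0.764% of all genes. The 4 remaining MAP kinase phosphatases with a kinase-binding domain, Dusp7, Dusp8, Dusp9 and Dusp10, had 0 calls higher in the shared response at any time. Of all 10858 genes, 1754, 1866 and 1592 were called higher at 2, 4 and 8 h, so 0 of 4 lies near that share. Dusp10, whose enzyme acts on JNK and p38, was lower at 2, 4 and 8 h (-0.39, -0.54 and -0.57, adjusted p 0.0351, 0.0109 and 0.0102). Dusp7, an ERK phosphatase like Dusp6, was lower in the double knockout than in wild type by -1.48 (SE 0.43, adjusted p 0.0231). It read 4.44 and 4.21 there at 2 and 4 h but 6.56 at 8 h, when wild type read 6.54.

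Of 12 genes listed as regulators of ERK signalling 8 were tested, and Ier3, Phlda1, Rasa2, Spred1 and Spred2 rose at all 3 times in the shared response. Over all genes, 45.2%, 40.3% and 32.7% were called at 2, 4 and 8 h in either direction. Rasa1 and Spry2 were lower at 2 h (-0.30 and -0.74, adjusted p 0.0458 and 0.000922) and higher in the double knockout than in wild type (1.36 and 0.45, adjusted p 0.000374 and 0.0234). The list's median was 1.22, 1.14 and 1.29 log2 at 2, 4 and 8 h. Phlda1 rose by 3.21 log2 at 2 h (adjusted p 0.000414) and was lower in the double knockout than in wild type by -1.98 (adjusted p 0.000920). Ier3 was lower there by -2.40 (adjusted p 0.000208), whereas Spred1, which restrains Ras signalling to ERK, differed by -0.22 (adjusted p 0.400). Among MAP kinase-activated kinases 7 of 9 were tested, and Mapkapk2, the p38-activated kinase that stabilizes cytokine messengers, rose by 1.94, 2.02 and 1.64 (adjusted p 7.85e-05, 8.38e-05 and 0.000294). In the double knockout Mapkapk2 was lower than in wild type by -1.66 (adjusted p 0.000420). Mknk1 and Mknk2, which phosphorylate the translation factor eIF4E, were lower than at 0 h at all 3 times and higher in the double knockout than in wild type (0.72 and 1.11, adjusted p 0.00600 and 0.000460).

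Of the MAP kinase-driven transcription factors 17 of 18 were tested. At 2 h 8 were higher than at 0 h and 3 lower in the shared response, beside 45.2% of all genes called. Ets2 rose by 3.36 log2 at 2 h (adjusted p 2.68e-05), Fosl2 by 2.22 (adjusted p 6.61e-05) and Myc by 2.11 (adjusted p 0.000292). Fos, a subunit of AP-1, and Atf3, a stress-induced repressor, were lower at 2 h (-1.99 and -1.89, adjusted p 9.93e-05 and 2.31e-05). In the double knockout 6 of the 17 were lower than in wild type and 5 higher, beside 41.2% of all genes called, among them Myc (-1.47, adjusted p 0.00565), Ets2 (-1.36, adjusted p 0.000930), Fosl2 (-1.29, adjusted p 0.00106) and Junb (-1.03, adjusted p 0.0123) lower, and Fos (1.59, adjusted p 0.000388) higher.

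The shared-response counts that follow stand beside 45.2%, 40.3% and 32.7% of all genes called at 2, 4 and 8 h. Of the MAP kinases 6 of 13 were tested. Mapk14, which encodes p38 alpha, rose at each time (0.53, 0.54 and 0.67, adjusted p 0.00531, 0.00536 and 0.00257) and Mapk6 at 2 and 4 h. The list's median was 0.14, 0.12 and 0.12 log2. Of 7 MAP kinase kinases 5 were tested, and 2 were higher and 1 lower at 2 h, among them Map2k3, which activates p38 (0.87, adjusted p 0.000573). Of 15 upstream kinases and adaptors 14 were tested, with 5 higher and 4 lower at 2 h. Map3k8, which activates ERK downstream of Toll-like receptors, rose by 0.48 at 8 h (adjusted p 0.0235), and Map3k5, which activates JNK and p38, by 1.28 at 2 h (adjusted p 0.000213). Of 17 other dual-specificity phosphatases 8 were tested, with 2 higher and 3 lower at 2 h. Dusp11, an RNA phosphatase, rose by 1.12 (adjusted p 0.000669), and Ssh2, which dephosphorylates cofilin, fell by 2.18 (adjusted p 1.20e-05). Of 8 other phosphatases acting on MAP kinases 5 were tested, and Ppm1b, Ppp2ca and Ppp2cb were higher and Ppm1d lower at 2 h.

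For the 3 members whose values spanned at least 2 log2 over the 11 arrays other than double knockout 0 h, the genes with the most like profile were found among 10857 others. The measure was the root mean square difference between profiles centred on their own mean over those 11 arrays. The stimulated arrays of both knockouts are among them, so likeness there follows from how the genes were chosen and is no separate result. For Dusp2 the nearest were Myo1g (0.16 log2), which encodes a leukocyte myosin, Zbtb7a (0.19) and Dlgap4 (0.22), beside a median of 0.76 over all genes. Myo1g read 6.09, then 8.13, 6.92 and 6.59 in wild type and 6.60, 5.82 and 6.52 in the stimulated double knockout. For Dusp4 they were Lrrc75a (0.17), Mthfs (0.25) and Met, the hepatocyte growth factor receptor (0.25), beside a median of 1.05. For Dusp16 they were Traf5, an adaptor of TNF receptors (0.27), Mllt6 (0.28) and Mthfs (0.30), beside a median of 0.95. Traf5 read 7.90 at 8 h in wild type, 7.36 in the IRAK2 knockout and 7.03 in the double knockout.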

How the data were processed

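Trizol-extracted RNA was, per the labels' protocols, labelled with the NuGEN Ovation system for Affymetrix arrays. The authors deposited log2 values of 45101 probesets, made with RMA per the submitters' processing notes (version not given in the sources used here). Probesets with 1 symbol (34958) were used, 932 with several and 9211 with none were not, and 34754 of the first were matched to current symbols through gene identifiers. Each gene was read from the probeset with the highest mean over the 11 arrays other than double knockout 0 h. Tests used limma 3.58.1 in R 4.3.3 on 10858 genes with a mean at or above 3.83, and were tested on simulated data. There are no replicates, and the number of arrays limits the precision. The double-knockout 0 h array entered alternatives only. Sequences are from RefSeq (GRCm38.p6), found for 6 of 7 members. Named genes are the members, at most 5 called genes per list and contrast by absolute difference, and the 3 nearest profiles of each member whose range was at least 2 log2. The alternatives were other scalings, probesets, filters, variance priors, genotypes and times. The members, lists and tests were chosen with earlier results of these data known.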

Additional observations from a re-analysis of the deposited data

Results flagged for a closer look

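For 3 members the changes from 0 h ran in opposite directions in wild type and double knockout at all 3 times under 1 of the baselines and not under the other, and these differences were not tested. With the average 0 h level of the other genotypes as baseline this held for Dusp5, which averaged 0.37 log2 in wild type and -0.51 in the double knockout, a gap of -0.88. The wild-type changes of Dusp5 were 1.005, 0.079 and 0.015 at 2, 4 and 8 h, so its direction at 4 and 8 h rests on very small changes. Against the double knockout's own 0 h array, which stands apart, Dusp5 averaged 0.36 there and the gap was -0.0077. Against that array the directions were opposite for Dusp2, which averaged -0.26 against 1.34 in wild type, a gap of -1.60, and for Dusp3, which averaged 1.87 against -1.03, a gap of 2.90. The Dusp2 changes of the double knockout against that array were -0.05, -0.63 and -0.10 at 2, 4 and 8 h, very small at 2 and 8 h. With the other baseline Dusp2 stood at 0.36, -0.22 and 0.31 and its gap was -1.19, and Dusp3 was below 0 h in both genotypes and its gap was 0.42.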

How the results depend on the processing

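No paired analysis was possible because each genotype and time has 1 array and the labels give no replicate numbers. Between double knockout and wild type 5 members were called, against 3 with only the 2 genotypes fitted, 1 with all 12 arrays, and 3, 0 and 3 without the 2, 4 and 8 h arrays. The 3 without 2 h are Dusp4 and Dusp16, called before, and Dusp6, which was not. Between double and IRAK2 knockout 4 were called, against 2 with only the 2 genotypes, 0 with all 12 arrays and 1 and 0 without 2 and 4 h. With probesets of single transcripts alone, 1 member was called between IRAK2 knockout and wild type and 1 from 2 to 4 h. Without the double knockout, 3 were called from 2 to 4 h and 1 from 4 to 8 h, beside 2037 and 529 of all genes. From 2 to 8 h none of the 3 calls was kept without wild type or without the IRAK2 knockout, with totals of 1 (Dusp16, newly called) and 0. The response with all 12 arrays called 3, 3 and 2 members at 2, 4 and 8 h, beside 738, 578 and 398 of all genes. Directions turned as follows, with the cause not tested. Dusp16 in double minus IRAK2 knockout was 0.36 with its other probeset, 0.14 with the mean of probesets and 0.10 without 4 h. Dusp3 was -0.043 there with the mean of probesets and -0.39 with all 12 arrays, and -0.33 against wild type with all 12. From 2 to 8 h Dusp3 was -0.086 with the mean of probesets and -0.029 without the double knockout, and Dusp4 was -0.041 without wild type. From 2 to 4 h without the double knockout, Dusp1 was 0.013 and Dusp16 0.19. In the response with all 12 arrays Dusp6 was -0.38 at 4 h, and Dusp5 and Dusp3 were 0.16 and 0.17 at 8 h, and Dusp5 was 0.16 with 11 arrays. Relative to 0 h on its own array, the double knockout stood at -1.49, -2.13 and -2.36 at 2, 4 and 8 h on the other Dusp16 probeset and -0.16, -0.65 and -0.25 on a dim Dusp3 probeset, and Dusp3 stood at -0.76, -0.88 and -0.17 against the other baseline. Over all genes, the 83 calls of IRAK2 knockout against wild type ranged from 6 to 565, the 4471 of the double knockout against wild type from 1166 to 4934 and the 4219 against the IRAK2 knockout from 1012 to 4772. The slopes called 1, 15 and 1 genes, with ranges of 0 to 33, 0 to 148 and 0 to 8. The time contrasts from 2 to 4, 2 to 8 and 4 to 8 h called 891 (0 to 2037), 2497 (418 to 3439) and 79 (0 to 529), and the response 4903 (738 to 5056), 4375 (578 to 4496) and 3551 (398 to 3693).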
